A study of Sus scrofa with 6 samples.

Results

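The solute carriers are membrane proteins that move sugars, amino acids, ions, nucleotides and vitamins across membranes, and their genes are named by a family number (SLC1, SLC2 and so on, with SLCO for the organic anion transporters). Members were taken from the annotation of the array as every gene whose probe set carries a single symbol that starts with SLC and a digit, or with SLCO, and each gene was represented by the probe set with the highest mean over the 6 arrays. This gave 123 genes with 184 probe sets, out of 6765 genes with a single-symbol probe set. Of the 123, 120 were carriers and 3 were proteins named after a carrier that they regulate (SLC9A3R1, SLC9A3R2 and SLC2A4RG). The rule reads symbols and mean levels, not the difference between the sexes. A further 5 probe sets, annotated with SLC12A8 or SLC23A3 together with another gene, were left out.

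Most carriers use a gradient of sodium, protons or a second solute, or let their substrate run down its own gradient, and the Na+/K+ pump keeps up the sodium gradient that many of them rely on. The facilitative glucose transporters (SLC2) and the monocarboxylate transporters (SLC16) bring in fuel and let lactate out, the SLC25 carriers pass metabolites, nucleotides and phosphate through the inner mitochondrial membrane, and the SLC35 carriers supply the Golgi with nucleotide sugars for glycosylation. Valve interstitial cells, the fibroblast-like cells of the leaflet, live in a tissue with few vessels and make a proteoglycan-rich matrix, and sodium-phosphate cotransport has been studied in them for its part in calcification.

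The leaflets came from 3 female and 3 castrated male pigs of mixed breed, 5 months old and about 90 kg, and each array held the RNA of 1 pig. The valves were taken out within 5 hours of death, and the endothelium had been scraped off with a scalpel in both sexes. The males had been castrated, so the comparison is of castrated males with females. The question was which genes differ between the sexes in healthy leaflets.

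Values are deposited RMA values on the log2 scale, so a difference of 1 is a 2-fold difference, and all differences are male minus female. Array medians lay between 7.33 and 7.38, and arrays of 1 sex correlated at 0.987 to 0.993 against 0.972 to 0.987 for arrays of different sex. EIF1AY, a Y-linked gene, averaged 10.03 ± 0.05 in males and 3.30 ± 0.23 in females (SD, n = 3 each), in keeping with the sex label of every array. All 10 measured markers of interstitial cells and fibroblasts lay above 5.53, the 25th percentile of all values, which is used below as the limit for a low value, from COL3A1 (7.05 to 7.36) to VIM (14.30 to 14.44). The mean of 8 of them was lower in males (median difference -0.21), with DCN (-0.38) and PDGFRB (-0.34) lower in every male and S100A4 (1.20) higher in every male, and none passed limma in either form, while 3 had an unadjusted p under 0.05. Of 10 measured cardiomyocyte markers 6 lay under the limit (ACTC1, MYH7, MYL2, NPPA, RYR2 and TNNT2), and of the other 4, NPPB (difference 1.89, adjusted p 0.0468 with the filter described below) and PLN (1.32) were higher in every male, MYL3 (-0.18) was lower in every male, and TNNI3 (-0.43) overlapped. What part these cell types had in the differences below was not tested. In whole tissue, fewer cells of a type and less RNA per cell cannot be told apart.

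As a group the solute carriers were balanced between the sexes. The mean was higher in males for 61 genes and lower for 62, and the median difference over the 123 was -0.0015, against 0.05 over all 6765 genes. For 112 of the 123 the difference was under 0.5 in size, and 3 genes reached 2-fold (2.18% of all probe sets and 2.16% of all genes did), namely the scaffold gene SLC9A3R2 (higher in males) and the glutamate carriers SLC1A1 and SLC1A2 (lower in males). With limma over all 23999 probe sets, none of the 123 passed an adjusted p of 0.05 with a 2-fold difference, where 0.304% of all probe sets did (0.167% higher and 0.138% lower in males), and 20 had an unadjusted p under 0.05 (10 in each direction, 16.3%), against 16.9% of all probe sets, 8.08% higher and 8.83% lower in males. With a filter that keeps the probe sets of highest coefficient of variation over the 6 arrays (CV), 12 of the 123 stayed in the test and SLC9A3R2 alone passed it, where 7.59% of the 2412 probe sets kept did (4.6% higher and 2.99% lower in males). The 3 male values lay all above or all below the 3 female values for 26 genes (15 higher in males, 11 lower, 21.1%), against 22.4% of all probe sets (11.1% higher, 11.4% lower) and 24.7% of all genes (15.7% higher, 9.08% lower). The smallest p that an exact permutation test of 3 against 3 arrays allows is 0.1, so it was not used for single genes.

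Of the 123 genes, 103 had a mean at or above the low limit and 20 a mean under it. Among the 20 were the renal and intestinal carriers SLC7A9, SLC17A1, SLC28A1, SLC23A1 and SLC26A3, the liver bile acid carrier SLC10A1, and SLC2A2, the glucose transporter of liver and pancreatic beta cells. Of these 20, 2 had an unadjusted p under 0.05, SLC1A2 and SLC8A1.

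**Figure D1:**
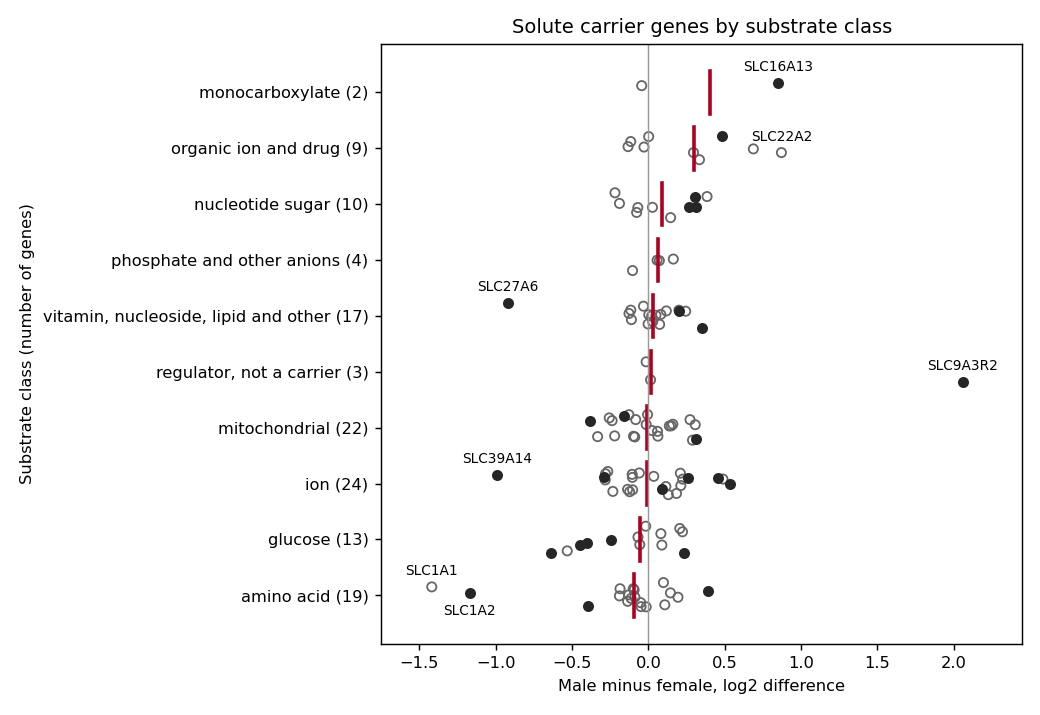
Difference between the sexes (male minus female, log2, x axis) of the 123 genes, grouped by substrate class with the number of genes in parentheses (y axis). Each circle is a gene, filled where the male and female arrays did not overlap, and red bars mark class medians. The medians run from -0.09 (amino acid) to 0.40 (monocarboxylate, 2 genes), and SLC9A3R2 at 2.06 stands farthest to the right.

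The gene with the largest difference was no carrier. SLC9A3R2 encodes a PDZ-domain scaffold (NHERF2) that ties membrane proteins, the Na+/H+ exchanger SLC9A3 first among them, to ezrin and the actin cytoskeleton. It measured 11.46, 11.09 and 10.34 on the male arrays and 8.96, 9.18 and 8.57 on the female arrays. Every male value lay above every female value, and male 3 was the lowest of its sex. The means were 10.96 ± 0.57 and 8.90 ± 0.31 (SD, n = 3 each), a 4.17-fold rise in males (log2 difference 2.06, SE 0.30, 95% interval 1.36 to 2.75). The limma adjusted p was 0.0099 with the CV filter and 0.0507 over all probe sets, where it just missed the threshold. The study listed this gene from the same samples, so the call is no independent evidence. With each array left out in turn, the difference ranged from 1.81 to 2.37 and the adjusted p with the CV filter from 0.003 to 0.040, while over all probe sets it ranged from 0.016 (without male 3) to 0.182.

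The paralog of this scaffold had a difference close to 0, and the exchanger that the scaffold binds overlapped between the sexes. The paralog SLC9A3R1 (NHERF1), with the same kind of PDZ domains, measured 8.69, 9.01 and 9.03 in males and 8.90, 9.02 and 8.85 in females, a difference of -0.01 (95% interval -0.31 to 0.28). SLC9A3 itself, an exchanger best known from kidney and gut, lay near the low limit with 5.65, 5.48 and 5.63 against 5.99, 5.51 and 5.67 (difference -0.14, 95% interval -0.47 to 0.20). In both genes, the male and female arrays overlapped. The other SLC9A3 probe set, of lower mean, had a difference of -0.33. SLC2A4RG, a transcription factor that binds the promoter of the insulin-responsive glucose transporter SLC2A4, had a difference of 0.01, and SLC2A4 one of -0.06.

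SLC9A3R2 is known to be abundant in endothelial cells. Endothelial markers were still measured in these scraped leaflets, 13 of 14 above the low limit and KDR below it. The probe set that stood for KDR averaged 4.36 in males and 4.54 in females. The study reported KDR as higher in males in these samples, on the array and by quantitative PCR. The reason for this discrepancy was not tested. The mean of 12 of the 14 was higher in males, with a median difference of 0.80. The sexes did not overlap for 6 (42.9%), all higher in males, against 15.7% of all genes that were higher in males without overlap. ICAM2 (difference 1.70, adjusted p 0.026) and ESAM (1.59, adjusted p 0.0395) passed limma with the CV filter. None passed over all probe sets, where 7 of the 14 had an unadjusted p under 0.05 (50.0%, against 17.5% of all genes). The log2 of the summed marker level was 15.00, 14.63 and 13.89 on male arrays 1 to 3 and 13.49, 14.06 and 13.36 on female arrays 1 to 3. The sexes overlapped in this sum, since male 3 lay below female 2. Single markers went both ways. ICAM2 (9.14 on male 3, 8.15 on female 2), ESAM (8.90 and 8.42), PECAM1 (12.61 and 12.28), EGFL7 and TIE1 were higher on male 3. FLT1 was nearly equal on both arrays (5.880 and 5.878), and KDR, under the low limit, was higher on male 3 (4.55 and 4.42). SLC9A3R2 was also higher there (10.34 and 9.18). VWF (9.68 on male 3, 11.33 on female 2), CDH5 (9.85 and 10.48), NOS3 (10.49 and 11.01), ERG, ENG, CLDN5 and TEK were lower on male 3. What part the endothelial cells left on the leaflets had in the SLC9A3R2 difference was not tested.

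**Figure D2:**
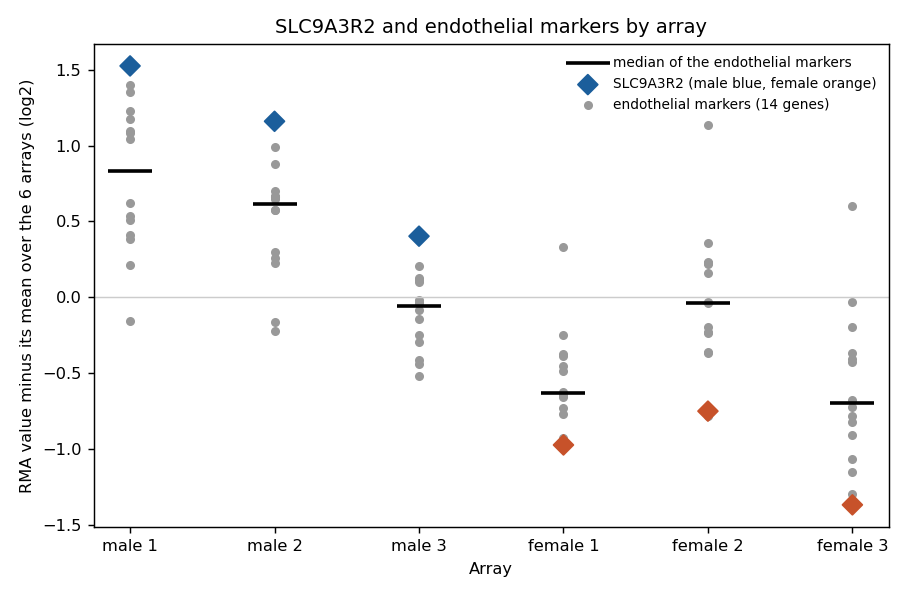
Level of SLC9A3R2 (diamonds, blue for males and orange for females) and of 14 endothelial markers (grey circles, black bar for their median) on each array, as the RMA value minus the gene's own mean over the 6 arrays (log2, y axis). SLC9A3R2 is above its mean on the 3 male arrays and below it on the 3 female arrays, while the marker medians of male 3 and female 2 lie close together.

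Among the 19 amino acid and peptide carriers the mean was lower in males for 14 and higher for 5, with a median difference of -0.09, and the range of that median with 1 array left out was -0.16 to -0.04. None passed limma in either form, and 3 had an unadjusted p under 0.05 (15.8%, against 17.5% of all genes). The 2 largest differences belonged to the SLC1 family, which takes up glutamate and aspartate, or neutral amino acids, together with sodium, and 5 of its 6 genes had a lower mean in males.

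SLC1A1 (EAAT3), the glutamate and cysteine carrier of many epithelia and neurons, measured 6.80, 7.27 and 8.07 in males and 8.70, 8.05 and 9.64 in females. The sexes overlapped slightly, since male 3 stood just above female 2. The means were 7.38 ± 0.64 and 8.80 ± 0.80 (SD, n = 3 each), a difference of -1.42 (SE 0.45, 95% interval -2.48 to -0.35), with a limma adjusted p of 0.204 over all probe sets and 0.0754 with the CV filter. This call turned on single arrays, because the CV-filter p was 0.0295 without male 3 and 0.0391 without female 2, but 0.245 without male 1. SLC1A1 also had the largest spread within a sex of all 123 genes (pooled SD 0.73). Its 4 other probe sets, of lower mean, had differences of -0.22, -0.57, -0.07 and -0.17.

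SLC1A2 (EAAT2), the main glutamate carrier of astrocytes, measured 4.01, 4.52 and 4.85 in males and 5.72, 4.96 and 6.22 in females. The groups did not overlap, but the mean lay under the low limit and the gap between male 3 and female 2 was narrow. The difference was -1.17 (SE 0.34, 95% interval -1.97 to -0.37, adjusted p 0.182 over all probe sets and 0.0847 with the CV filter, by limma). Without female 2 the CV-filter p was 0.0433, and without male 1 it was 0.284. The rest of the family lay closer to 0, with -0.05 for SLC1A3 (EAAT1), -0.09 for SLC1A4, -0.19 for SLC1A5 and 0.11 for SLC1A6. SLC1A5 (ASCT2), a glutamine carrier of proliferating cells, measured 11.28, 11.32 and 11.52 in males against 11.42, 11.61 and 11.65 in females, with overlap (95% interval -0.46 to 0.09).

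The system A glutamine carrier SLC38A1 measured 9.69, 10.28 and 10.34 in males and 10.41, 10.59 and 10.49 in females. All 3 male values were lower, though males 2 and 3 came close to the females (difference -0.39, SE 0.18, limma adjusted p 0.331). The other members of its family, SLC38A9, a lysosomal amino acid sensor of the mTORC1 pathway, and SLC38A10, had differences of -0.13 and -0.11. In the opposite direction, SLC7A7, which exchanges cationic for neutral amino acids and is expressed in macrophages and in kidney and gut epithelium, measured 7.49, 7.31 and 7.08 in males against 6.9997, 6.95 and 6.75 in females. Here every male value was above the females, by a small margin (difference 0.39, SE 0.14, adjusted p 0.231). The other SLC7A7 probe set, of lower mean, had a difference of 0.05 and overlapped. SLC3A2, the heavy chain that SLC7A7 and other light chains need to reach the membrane, differed by 0.14 and overlapped. The arginine carrier SLC7A1 had values of 10.02, 9.90 and 9.27 in males and 9.19, 10.17 and 9.53 in females, a spread within each sex larger than the difference of 0.10.

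Of 11 listed genes of the amino acid response and of glutamine and serine synthesis 6 were measured. None passed limma in either form, with 1 at an unadjusted p under 0.05 (16.7%, against 17.5% of all genes). That gene was ASNS, asparagine synthetase, at 8.94, 8.85 and 9.03 in males and 8.34, 8.61 and 8.61 in females (difference 0.42, adjusted p 0.172), with no overlap. GLUL, which makes glutamine from glutamate, differed by 0.26 and ATF4, the transcription factor of the response, by -0.23, both with overlap.

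Among the 13 glucose and sugar carriers the mean was lower in males for 8 and higher for 5, with a median difference of -0.06 (-0.11 to -0.01 with 1 array left out). None passed limma in either form, 4 had an unadjusted p under 0.05, all lower in males, and 5 did not overlap (4 lower, 1 higher). These shares were 30.8% and 38.5% of the 13 genes, against 17.5% and 24.7% of all genes, of which 6.53% were lower in males at an unadjusted p under 0.05 and 9.08% lower without overlap. The carriers with lower values in males were SLC2A12, SLC5A10, SLC2A1 and SLC45A2, and the one with higher values was SLC50A1.

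SLC2A12 (GLUT12), a glucose transporter of heart, muscle and fat, measured 5.91, 6.11 and 6.51 in males and 6.85, 6.65 and 6.96 in females. The difference was -0.64 (SE 0.17, 95% interval -1.05 to -0.23, limma adjusted p 0.167), the smallest p of any member lower in males. SLC5A10, a sodium-coupled mannose and fructose carrier of kidney, measured 6.87, 7.12 and 7.04 against 7.43, 7.31 and 7.48 (difference -0.40, SE 0.11, adjusted p 0.171). In both genes the female values were tightly grouped and all above the males. SLC2A1 (GLUT1), the basal glucose transporter of most cells, measured 7.78, 7.67 and 7.82 in males and 8.28, 8.49 and 7.84 in females (difference -0.45, SE 0.17, adjusted p 0.260). Female 3 lay next to the males, so the separation rested on the other two. SLC5A4 had a difference of -0.53 (95% interval -0.99 to -0.07, adjusted p 0.244) with overlap.

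The glucose transporters SLC2A3 (GLUT3) and SLC2A5, a fructose transporter, varied more between pigs than between the sexes. SLC2A3 measured 11.80, 11.63 and 10.80 in males and 11.32, 11.65 and 11.004 in females (difference 0.09, 95% interval -0.58 to 0.76), and SLC2A5 6.95, 6.12 and 5.28 against 6.15, 6.24 and 5.34 (difference 0.21, 95% interval -0.80 to 1.22). In both genes male 3 and female 3 were the lowest of their sex. SLC2A4 (GLUT4), the insulin-responsive transporter, stayed within 7.39 to 7.50 on all 6 arrays (difference -0.06).

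Only 2 monocarboxylate carriers had a single-symbol probe set. SLC16A13 (MCT13), which has been tied to the risk of type 2 diabetes and to lactate transport, measured 8.74, 8.31 and 7.81 in males and 7.37, 7.53 and 7.41 in females. All male values were above the females, and the males spread far more (SD 0.47 against 0.08). The difference was 0.85 (1.8-fold, SE 0.22, 95% interval 0.32 to 1.38), with a limma adjusted p of 0.161 over all probe sets and 0.123 with the CV filter. Without male 3 the difference was 1.09 and the adjusted p over all probe sets 0.0425, while it lay between 0.196 and 0.371 when any other array was left out. SLC16A3 (MCT4), the lactate exporter of glycolytic cells, was under the low limit on all arrays (5.16 to 5.27), with a difference of -0.04. LDHA, the lactate dehydrogenase subunit of glycolytic tissue, averaged 12.17 ± 0.16 in males and 11.72 ± 0.04 in females (SD, n = 3 each) without overlap (difference 0.45, adjusted p 0.151), and BSG, the chaperone that monocarboxylate carriers need to reach the membrane, differed by 0.16, also without overlap.

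In a list of 19 partners that keep up the gradients and use the fuel, 13 were measured. All 13 had a higher mean in males (median difference 0.17) and lay at or above the low limit. Among all 6093 genes at or above that limit, 3663 had a higher mean in males. None passed limma in either form, and 3 had an unadjusted p under 0.05 (23.1%, against 17.5% of all genes). The sexes did not overlap for 5 (38.5%), against 15.7% of all genes that were higher in males without overlap. The log2 of their summed level was 15.89 to 16.02 in males and 15.51 to 15.75 in females. The largest differences were in FXYD5 (0.70) and FXYD6 (0.67), small subunits that modulate the Na+/K+ pump. FXYD6 measured 13.46, 13.37 and 13.61 in males against 12.89, 12.89 and 12.66 in females (adjusted p 0.0783). The pump subunit ATP1B3 differed by 0.17 without overlap, and ATP1B1 by 0.37 with overlap.

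**Figure D3:**
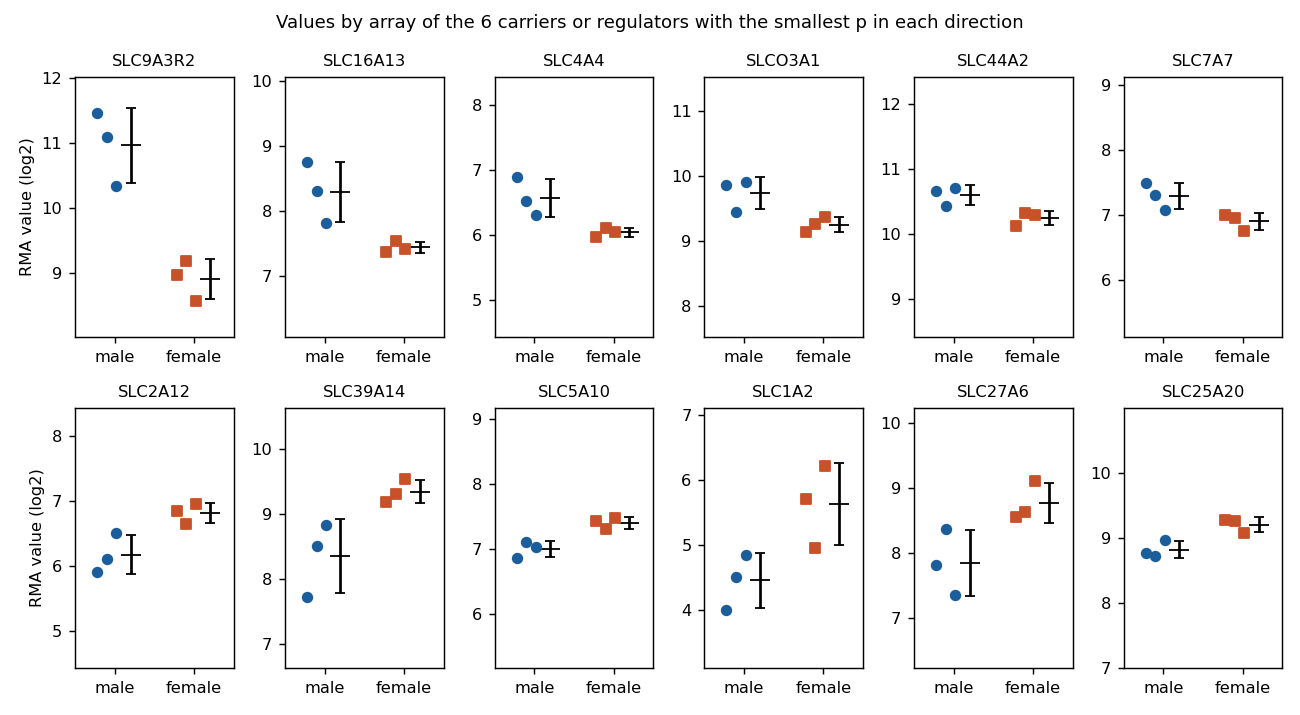
RMA values (log2, y axis) of the 6 members with the smallest p in each direction, those with a higher mean in males in the upper row and those with a lower mean in the lower row. Points are single pigs, and lines with bars are the mean and SD of 3 arrays. In all 12 genes the male and female points do not overlap, and SLC9A3R2, with means of 10.96 and 8.90, shows the widest gap.

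The 24 ion and metal carriers split evenly, with 12 higher and 12 lower means in males and a median difference of -0.01. None was called in either limma form, and 4 had an unadjusted p under 0.05 (16.7%, against 17.5% of all genes). SLC39A14 (ZIP14), which takes up zinc, iron and manganese and is induced by inflammation, measured 7.72, 8.50 and 8.84 in males and 9.19, 9.30 and 9.54 in females. Every male value was below every female value, and male 1 lay far below the rest. The difference was -0.99 (1.99-fold lower in males, SE 0.27, 95% interval -1.63 to -0.35), with a limma adjusted p of 0.171 over all probe sets and 0.102 with the CV filter. With 1 array left out, the CV-filter adjusted p ran from 0.0495 (without male 3) to 0.254. A second probe set had a difference of -0.58. The 5 other zinc uptake carriers lay between -0.06 (SLC39A5) and 0.26 (SLC39A1). SLC39A1 (ZIP1) measured 10.87, 10.71 and 10.76 in males and 10.38, 10.61 and 10.57 in females, with all males above (95% interval -0.0005 to 0.51).

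SLC4A4 (NBCe1), a sodium-bicarbonate cotransporter that sets cell pH, measured 6.89, 6.52 and 6.32 in males and 5.97, 6.11 and 6.05 in females. The males were all higher, most of all male 1 (difference 0.53, SE 0.16, limma adjusted p 0.185). The other SLC4A4 probe set, of lower mean, had a difference of 0.09 and overlapped. SLC8A1 (NCX1), the plasma membrane sodium-calcium exchanger, measured 5.53, 5.11 and 5.07 against 4.99, 4.83 and 4.53 without overlap but with a mean under the low limit (difference 0.45, adjusted p 0.261). The anion exchanger SLC26A6 was lower in each male, with 6.09, 6.26 and 6.41 against 6.66, 6.53 and 6.45 (difference -0.29, adjusted p 0.289). SLC11A1 (NRAMP1), a metal carrier of the macrophage phagosome, measured 9.19, 8.65 and 7.71 in males and 8.36, 8.01 and 7.70 in females, and its spread between pigs exceeded the difference of 0.49 (95% interval -0.37 to 1.34). Of 8 measured macrophage markers 4 averaged higher in males and 4 in females, and their summed level overlapped (14.19 to 14.64 in males, 13.96 to 14.54 in females). SLC11A2 (DMT1), the iron carrier of most cells, differed by -0.27 with overlap.

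The 22 mitochondrial carriers differed little between the sexes, with differences from -0.38 to 0.31, 10 higher and 12 lower means and a median of -0.01, and none passed limma in either form. At the low end stood SLC25A20, the carnitine-acylcarnitine carrier that brings fatty acids to beta-oxidation. It measured 8.77, 8.72 and 8.97 in males and 9.28, 9.26 and 9.07 in females, with no overlap (difference -0.38, SE 0.12, adjusted p 0.193). At the high end stood SLC25A6, 1 of the ADP/ATP carriers, at 12.97, 12.86 and 12.79 against 12.50, 12.76 and 12.43, with male 3 only just above female 2 (difference 0.31, SE 0.12, adjusted p 0.275). The other ADP/ATP carriers overlapped between the sexes, with differences of -0.01 for SLC25A4, the form of heart and muscle (95% interval -0.30 to 0.29), and 0.29 for SLC25A5 (95% interval -0.38 to 0.96). SLC25A3, the mitochondrial phosphate carrier, measured 12.41, 12.39 and 12.34 in males and 12.46, 12.66 and 12.50 in females, a small difference without overlap (-0.16, 95% interval -0.40 to 0.08). The other SLC25A3 probe set, of lower mean, had a difference of 0.06, with the opposite sign. SLC25A20 and SLC25A6 were the 2 mitochondrial carriers with an unadjusted p under 0.05 (9.09%, against 17.5% of all genes).

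Fatty acid uptake gave a further pair that differed in size. SLC27A6 (FATP6), the long-chain fatty acid transporter first described in heart, measured 7.81, 8.36 and 7.34 in males and 8.54, 8.63 and 9.11 in females. The males were all lower, with male 2 close to the females (difference -0.92, 1.89-fold, SE 0.27, 95% interval -1.56 to -0.28, limma adjusted p 0.185 over all probe sets and 0.119 with the CV filter). Its 2 other probe sets, of lower mean, had differences of -0.19 and -0.01. SLC27A1 (FATP1), the form of muscle and fat, differed by -0.03 with overlap. SLC44A2, a choline transporter-like protein, measured 10.66, 10.43 and 10.71 in males and 10.13, 10.33 and 10.30 in females, all males higher (difference 0.35, SE 0.12, adjusted p 0.224). Its other probe sets gave 0.49 and 0.65, with adjusted p values of 0.136 and 0.0756.

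The other members of the class of vitamin, nucleoside, lipid and other carriers stayed near 0. Males had the higher mean in 11 of its 17 genes and females in 6, and the median was 0.03 (0.01 to 0.09 with 1 array left out). None passed limma in either form. An unadjusted p under 0.05 was found for 2, SLC27A6 and SLC44A2 (11.8%, against 17.5% of all genes). SLC52A2, a riboflavin transporter, did not overlap, with 8.38, 8.57 and 8.55 in males and 8.31, 8.35 and 8.23 in females (difference 0.20). The serotonin transporter SLC6A4, of interest in valves because serotonin can drive valve disease, measured 6.30, 6.04 and 6.001 against 5.88, 6.07 and 6.14 (difference 0.08), and the nucleoside transporter SLC29A1 differed by 0.0028 (-0.0069 with arrays centred on their medians).

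Males had the higher mean in 6 of 9 carriers of organic ions and drugs and females in 3. The median was 0.30 (0.16 to 0.39 with 1 array left out). None passed limma in either form, while 2 had an unadjusted p under 0.05 (22.2%, against 17.5% of all genes). SLCO3A1, an organic anion transporter that carries prostaglandins and thyroxine, measured 9.86, 9.45 and 9.90 in males and 9.14, 9.26 and 9.36 in females. The males were all higher, although male 2 stood next to female 3 (difference 0.48, SE 0.15, adjusted p 0.192). The carnitine transporter SLC22A5 differed by 0.33 (adjusted p 0.294). The organic cation transporters SLC22A2 and SLC22A3, which clear amines, had the larger differences of 0.87 and 0.69, but both overlapped. SLC22A3 measured 8.33, 8.49 and 8.81 in males and 8.54, 7.09 and 7.94 in females, so female 1 lay among the males (95% interval -0.12 to 1.49). SLC22A2 showed the same arrangement, with 5.64, 6.09 and 6.21 against 6.11, 4.41 and 4.81 (95% interval -0.11 to 1.85). Its mean of 5.55 lay just above the low limit of 5.53, and females 2 and 3 lay under that limit.

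The 10 genes of the SLC35 family were classed as nucleotide sugar carriers by family number, not by the substrate of each gene. Of these, 6 were higher on average in males and 4 in females, with a median difference of 0.09 (0.04 to 0.13 with 1 array left out). None passed limma in either form. The sexes did not overlap for 3 of the 10 genes, all higher in males, against 15.7% of all genes that were higher in males without overlap. SLC35F6, 1 of these 3, was the only gene of the 10 with an unadjusted p under 0.05, against 17.5% of all genes. Whether the class differs from all genes was not tested. SLC35F6 measured 9.71, 9.61 and 9.56 in males and 9.18, 9.46 and 9.32 in females (difference 0.31, adjusted p 0.242). SLC35C1, the Golgi GDP-fucose transporter, had a difference of 0.30 and SLC35A4 one of 0.27. SLC35A3, which carries UDP-N-acetylglucosamine, had 0.38 with overlap, and SLC35B2, which supplies the sulfate donor for proteoglycans, -0.19 with overlap (95% interval spanning 0).

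Of the 4 phosphate and related anion carriers none had an unadjusted p under 0.05. The sodium-phosphate cotransporter SLC34A2 measured 7.91, 7.73 and 8.21 in males and 8.26, 7.88 and 8.03 in females (difference -0.10, 95% interval -0.48 to 0.28). SLC37A4, the glucose-6-phosphate carrier of the endoplasmic reticulum, differed by 0.16 with overlap. The phosphate carriers SLC20A1 and SLC20A2 were not analysed here.

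Around phosphate handling, 7 of 12 listed genes were measured, 3 with a higher and 4 with a lower mean in males. STC1, a secreted hormone that regulates calcium and phosphate transport, rose in males, with 11.68, 11.18 and 10.53 against 8.25, 9.13 and 8.70 in females (difference 2.44, limma adjusted p 0.0440 over all probe sets and 0.0053 with the CV filter). Its groups lay far apart, with male 3 again the lowest of the males. PTHLH, which encodes the parathyroid hormone-related peptide, had a difference of 1.35 without overlap (adjusted p 0.142). ENPP1, which makes the calcification inhibitor pyrophosphate, was lower in every male (difference -0.54, adjusted p 0.171). The study named STC1 on these samples, so its call here is no independent evidence.

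Where a gene had several probe sets, these mostly lay on the same side. Of 41 such genes 30 had all probe sets with the same sign and 11 had both signs, and 82 genes had a single probe set. All 4 probe sets of SLCO3A1 (0.48, 0.30, 0.29 and 0.18) and all 3 of SLC44A2 were higher in males, and all 5 of SLC1A1 and all 3 of SLC38A1 were lower. SLC35F5 was the 1 gene with a probe set on the other side by at least 0.5. Its highest probe set had a difference of -0.22 and the others 0.13 and 0.53, so no direction can be given for this gene. A probe set's place on the transcript was not read, and levels were not compared between probe sets.

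**Figure D4:**
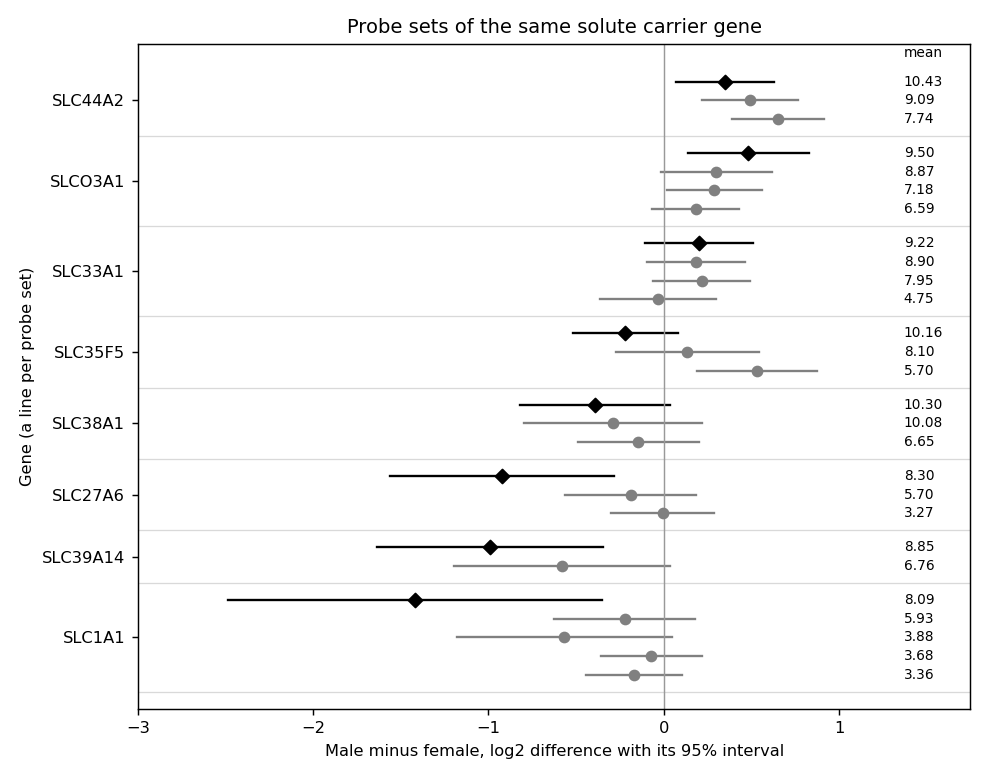
Difference between the sexes (male minus female, log2, x axis) with its 95% interval at each probe set of 8 solute carrier genes (y axis), the probe set that stands for the gene in black and the others in grey, with mean levels at the right. The probe sets of SLCO3A1 and SLC44A2 all lie right of 0 and those of SLC1A1, SLC39A14 and SLC38A1 left of it, while those of SLC35F5 run from -0.22 to 0.53.

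The pooled SD within a sex was 0.73 for SLC1A1, 0.69 for SLC2A5, 0.66 for SLC22A2 and 0.58 for SLC11A1, the largest values among the 123 genes, and the first 3 of these had differences of -1.42, 0.21 and 0.87. Median differences without regard to sign were 0.14 for the solute carriers and 0.15 for all genes. A carrier that missed the threshold is not shown to be equal in the sexes.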

How the data were processed

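Total RNA (400 ng) of leaflets from 3 male and 3 female pigs had been hybridized to Affymetrix Porcine arrays. Per the labels, the authors ran RMA under R 2.12.0, and the deposited log2 values were used unchanged. Raw intensities were not reprocessed. The number of arrays limits the precision, and p-values measure the spread between pigs.

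Sexes were compared with limma 3.58.1 (lmFit and eBayes, R 4.3.3) over the 23999 probe sets other than 124 controls, and over the 2412 probe sets (10%) with the highest CV, at least 6.50%, of all 24123. The methods name a CV filter, without its share, meant to remove values that differ too much between replicates. That purpose does not match keeping the highest CV over all arrays, so both the share and the direction used here follow an earlier account of these data and are not the methods' own. A CV over all arrays favours probe sets that differ between the sexes. Calls needed a Benjamini-Hochberg adjusted p under 0.05 and 2-fold. Where a count is said to pass in neither form, both tests are meant. Figures used matplotlib 3.10.9 in Python 3.11.15.

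In data simulated on the 23999 probe sets with 200 changed, the test over all probe sets recovered 85.8% of log2 shifts of 1.5 and 97.7% of shifts of 3 (10 simulations). These shares do not give the chance that a gene of larger spread is called. SLC1A1, with a pooled SD of 0.73, differed by -1.42 and had a limma adjusted p of 0.204 over all probe sets.

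The members, the gene lists and the rules were chosen with earlier results of these data known. Genes were named if called in either test, if among the 6 smallest p in each direction, if on a list of best-known carriers (30 measured), or if a probe set opposed by at least 0.5, and other members are named as class examples chosen after their values were seen. The symbols of 121 of the 123 members matched RefSeq by gene ID. A list's members have 1 probe set per gene, of highest mean, and its summed level is the log2 of the sum of linear values. Intervals are 95% intervals of limma. Alternatives were a replicate block, leaving out each array, an intensity trend, median centring, a filter on low values, a wider CV filter, no minimum fold and probe sets averaged per gene.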

Additional observations from a re-analysis of the deposited data

How the results depend on the processing

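Over all probe sets 0 solute carriers were called (20 at an unadjusted p under 0.05, limma). SLC9A3R2 became the 1 call with an intensity trend (adjusted p 0.0481), with arrays centred on their medians (0.0469) and with probe sets averaged per gene. Leaving out an array gave 0 to 2 calls, the 2 being SLC9A3R2 and SLC16A13 without male 3, when calls over the whole array went from 73 to 285. With the CV filter 1 was called, 2 with the intensity trend (SLC1A2 beside SLC9A3R2) and 1 to 3 with an array left out. SLC1A1 and SLC39A14 joined without male 3, and SLC1A1 and SLC1A2 without female 2. Calls over the whole CV-filtered array went from 183 to 391 without male 3.

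Both sexes carry replicate numbers 1 to 3, and the deviations of arrays with the same number correlated at -0.10, 0.01 and 0.27. The last value, for male 3 and female 3, was the highest of any male with any female array. Next came 0.21 for male 2 and female 1. The numbers were not taken as pairs in the main tests, and these values do not settle whether they are pairs. With the replicate block 1 solute carrier was called over all probe sets (SLC9A3R2, adjusted p 0.0223) and 2 with the CV filter (SLC1A1 beside it), as calls over the whole array went from 73 to 204 and from 183 to 302.

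Of 39 named genes 28 kept their sign under every alternative run and 11 changed it, none with a difference over 0.27 in size with all arrays. With 1 array left out the differences ran from -0.41 to 0.0082 for SLC11A2, from -0.19 to 0.15 for SLC1A3, from -0.067 to 0.081 for SLC25A4, from -0.17 to 0.11 for SLC27A1, from -0.11 to 0.11 for SLC29A1, from -0.11 to 0.39 for SLC2A3, from -0.21 to 0.62 for SLC2A5, from -0.23 to 0.0082 for SLC34A2, from -0.010 to 0.14 for SLC6A4, from -0.12 to 0.37 for SLC7A1 and from -0.075 to 0.095 for SLC9A3R1. Median centring took SLC29A1 to -0.0069. The median over all members stayed between -0.01 and 0.01, and 23 to 26 members did not overlap. The causes of these changes were not tested. Low values and 3 arrays per sex limit what can be seen.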

Other observations

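The study's own naming of probe sets adds monocarboxylate carriers that the annotation of the array used here leaves without a symbol. They were named by the study after it had found them changed in these samples, so they were not counted above and are no independent evidence. SLC16A10, which carries aromatic amino acids and thyroid hormones, has a pair of probe sets. The first measured 3.79, 4.02 and 3.995 in males and 5.40, 5.33 and 5.74 in females, and fell by 1.56 on the log2 scale (limma adjusted p 0.0133 over all probe sets and 0.0157 with the CV filter). Its mean was under the low limit. The second measured 4.81, 5.65 and 5.74 against 7.25, 6.78 and 7.38, and fell by 1.73 with the CV filter (adjusted p 0.0213), though over all probe sets the adjusted p was 0.0653. In both, every male value was below every female value.

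SLC16A12, a creatine transporter, measured 8.61, 8.43 and 7.90 in males and 7.14, 6.88 and 7.23 in females. All males were higher, and the rise of 1.23 passed limma with the CV filter (adjusted p 0.0483), not over all probe sets (adjusted p 0.0670).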
